A study of Mus musculus with 12 samples.

Results

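The nuclear-encoded genes of the mitochondrial respiratory chain were followed in 12 RNA-seq libraries of mouse embryonic stem cells (mESC) and early embryoid bodies (EB), with and without a conditional deletion in Rif1, which encodes a chromatin protein. The members are the 92 rows, of 24391 gene symbols, whose symbol starts with Nduf, Uqcr, Atp5 or Cox4 to Cox8, or is Sdha, Sdhb, Sdhc or Sdhd. They comprise 36 subunits of complex I (7 core and 29 accessory), 7 complex I assembly factors, 4 genes of complex II, 8 of complex III, 20 of complex IV, 15 of complex V, and 2 rows, Atp5s and Atp5sl, that share the prefix without being structural subunits. Ndufa4 and its paralog Ndufa4l2 were counted with complex IV. All 92 are annotated as protein-coding, and 81 encode structural subunits (Cox7a2l and Ndufa4l2, counted with complex IV, do not).

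The cells were 4 female mESC lines from a cross of C57BL/6J-129/SvJ with Mus musculus castaneus, all heterozygous for a CreERT allele (Rs26+/CreERT), a Cre recombinase that 4-hydroxytamoxifen (OHT) switches on. Replicates 1 and 2 are lines 5.3 and 5.16, which are Rif1+/+ (WT), and replicates 3 and 4 are lines 15.10 and 16.9, which are Rif1F/F. From each line 1 library was made before OHT, another after 2 days of OHT in mESC culture, and the last from EB of 2 days that had also received OHT, so the 6 groups hold 2 libraries each. Rif1F/F libraries are called F/F before OHT and KO after it. In the titles, F/F libraries bear a KO name and a bracketed WT name, and they were read as not deleted because the titles place them before the deletion. The mESC medium held serum, leukemia inhibitory factor, the MEK inhibitor PD0325901 and the GSK3 inhibitor CHIR99021, which hold mESC in a naive state. Since each line is a single derivation and each group holds 2 of them, p-values measure only the spread between these libraries, and genotype cannot be told apart from other differences between the 2 pairs of lines. The leading part of the description label is the same within a condition and differs between conditions. What it stands for is not stated, and if it marks a sequencing batch, the effects of condition cannot be told apart from those of the batch.

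Complex I (NADH dehydrogenase) and complex II (succinate dehydrogenase) feed electrons to ubiquinone, complex III (the cytochrome bc1 complex) passes them to cytochrome c, complex IV (cytochrome c oxidase) passes them to oxygen, and complex V (ATP synthase) uses the resulting proton gradient to make ATP. Most subunits are encoded in the nucleus, and several complex IV subunits have paralogs that are known from heart, muscle, lung or testis. Naive mESC are known to use both respiration and glycolysis, and cells that leave the naive state are known to shift towards glycolysis. The mitochondrially encoded subunits are not analysed here.

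Total counts were 28600870 to 64808897 per library, of which the members took 0.963% to 1.19%. Rif1 was at 1442 to 1511 CPM (counts divided by the library total and rescaled) in WT mESC and 654 to 719 CPM in KO mESC, and at 1308 to 1354 and 806 to 861 CPM in WT and KO EB. The F/F lines were already lower before OHT, at 1157 to 1204 CPM against 1567 to 1802 CPM. Counts of the whole gene do not show the deleted part, and no protein was measured. The 8 listed markers of mESC summed to 4216 to 5887 CPM in the mESC libraries and 1124 to 1417 CPM in EB. They include Pou5f1, a general pluripotency gene at 650 to 961 CPM in all libraries, and without it the sums were 3559 to 4958 and 393 to 667 CPM. The 6 markers of early epiblast summed to 205 to 312 CPM in mESC and 1378 to 2518 CPM in EB. The 12 markers of feeder fibroblasts summed to 17.0 to 29.4 CPM in mESC and 34.9 to 46.6 CPM in EB. Against mESC after OHT, 5 of 7 tested were higher in WT EB and 1 lower, and 4 higher and 1 lower in KO EB. Col3a1 and Dcn were at 0 in at least 6 libraries, while Dcn was at 0.764 to 1.70 CPM in EB. The part of such cells in the results was not tested. WT mESC replicate 1 stood apart: genes of 65% GC were at -0.65 on a log2 scale relative to the mean of the libraries in a smooth trend, against -0.23 to 0.37 in the other 11 libraries. Lars2 took 0.869% of its counts, against 0.0147% to 0.140% elsewhere, while Rn45s took 3.99% to 8.69% over all libraries. Their part in the results was not tested. Transcripts of 500 bases were at 0.09 to 0.16 in EB and -0.12 to -0.02 in mESC after OHT in the same kind of trend. The members' median transcript length was 1105 bases and their GC content 36.7% to 63.4%, so each comparison was also fitted with a correction for length and GC.

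Promoter windows (250 bases before to 50 after the start, from RefSeq on GRCm38.p6) matched 76 of the 92 members. The letters GCGCANGC, a core of the NRF1 motif, stood on either strand in 25 of these 76 windows (32.9%), against 10.1% of all 27025 windows in that table and 13.4% of the 17492 of protein-coding genes. CCGGAAG, a core of the ETS motif that GABP binds, stood in 16 (21.1%, against 9.12% and 11.9%), and AAGATGG, a core of YY1, in 11 (14.5%, against 6.48% and 6.37%). TATAAA stood in 7 (9.21%, against 14.2% and 13.3%). No string contains another, but CCGGAAG and AAGATGG can overlap in AAG, and windows of neighbouring starts can overlap. A match is a description of letters and not of binding. 4 windows, cut to 30 bases after the start, are shown because these genes carry the changes described below: Ndufb4, Sdhb and Cox6b1 were lower in EB in both genotypes, and Cox7b2 was the member with the greatest difference between genotypes. Capitals mark GCGCANGC in Ndufb4 and its reverse complement in Sdhb, CCGGAAG in Sdhb and its reverse complement in Cox6b1, and the reverse complement of TATAAA, far upstream of the start, in Cox7b2. The windows lie at chr16:37654339-37654618 on the minus strand, chr4:140961021-140961300 on the plus strand, chr7:30626085-30626364 on the minus strand and chr5:71548176-71548455 on the minus strand.
Ndufb4: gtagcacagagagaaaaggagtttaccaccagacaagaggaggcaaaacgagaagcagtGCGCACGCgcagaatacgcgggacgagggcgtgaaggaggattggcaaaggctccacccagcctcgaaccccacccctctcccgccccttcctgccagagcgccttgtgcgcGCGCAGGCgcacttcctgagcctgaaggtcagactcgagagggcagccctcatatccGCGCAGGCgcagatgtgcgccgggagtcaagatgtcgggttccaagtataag
Sdhb: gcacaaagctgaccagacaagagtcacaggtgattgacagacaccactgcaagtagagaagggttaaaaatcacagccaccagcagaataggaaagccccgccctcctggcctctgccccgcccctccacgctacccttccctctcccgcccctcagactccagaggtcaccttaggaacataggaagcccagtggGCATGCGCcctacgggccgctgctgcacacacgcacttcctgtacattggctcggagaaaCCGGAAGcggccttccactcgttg
Cox6b1: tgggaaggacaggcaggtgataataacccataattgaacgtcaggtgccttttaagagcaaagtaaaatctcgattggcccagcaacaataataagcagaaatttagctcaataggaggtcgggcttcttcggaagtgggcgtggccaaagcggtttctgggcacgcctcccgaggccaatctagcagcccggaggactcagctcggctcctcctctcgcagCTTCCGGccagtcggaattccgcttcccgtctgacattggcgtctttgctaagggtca
Cox7b2: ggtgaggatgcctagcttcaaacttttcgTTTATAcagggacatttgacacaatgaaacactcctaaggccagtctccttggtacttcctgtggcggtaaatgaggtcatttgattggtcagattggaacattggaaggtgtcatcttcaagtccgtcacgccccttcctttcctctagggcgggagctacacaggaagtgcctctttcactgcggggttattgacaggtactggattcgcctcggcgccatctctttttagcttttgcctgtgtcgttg
Of the 27 members with a window that were lower in EB in both genotypes, 9 (33.3%) held the NRF1 letters, against 15 of the other 48 tested members with a window (31.2%). Cox5a and Cox6b2, which fell by over 1 on the log2 scale in both genotypes, held none of these strings in their windows.

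The complexes were expressed at different levels, and within each complex the genes differed widely. Per kilobase of the longest annotated transcript and averaged over the 12 libraries, Atp5b, the catalytic beta subunit of ATP synthase, was the highest member at 1054 CPM per kilobase. Atp5a1, its alpha partner, was at 614 CPM per kilobase. In complex IV, Cox4i1, the ubiquitous form of subunit 4, was highest at 447 CPM per kilobase, and in complex III the small subunit Uqcr10 was highest at 218. Ndufa7 led the accessory subunits of complex I at 196 CPM per kilobase. Sdhd, a membrane anchor, led complex II at 143 CPM per kilobase. At the other end, Cox6a2, the heart and muscle form of subunit 6a, averaged 0.0502 CPM per kilobase, and Ndufs5 had 1 count in all libraries together. Neither passed the low-count filter, so 90 of the 92 members were tested. Ndufs5 shares 31.1% of its 50-base words with BC002163, which held 12812 counts. Of all members, 34 share at least 5% of their words with another gene, and the counts of these are uncertain where reads could be split or dropped. Whether counting used strand is not stated in the labels, so members that overlap a neighbour (Ndufa13 with Tssk6, Atp5j with Gabpa, Cox4i1 with Emc8) may hold reads of either.

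Summed over complexes, expression was lower in EB than in mESC after OHT in both genotypes, by most in complexes II and IV. In complex IV the sum was 1419 and 1539 CPM in the WT mESC libraries, and 1152 and 1186 CPM in WT EB. The KO libraries had 1575 and 1613 CPM as mESC and 1291 and 1261 CPM as EB. Every EB library was below every mESC library in this sum, and the means were 21.0% lower in WT and 19.9% lower in KO. Complex II went from 766 ± 14.1 to 629 ± 7.63 CPM in WT (mean ± SD, n = 2, as for all means here) and from 785 ± 29.1 to 656 ± 4.42 CPM in KO. For complex V the means were 5052 ± 161 and 4480 ± 143 CPM in WT, and 5263 ± 58.0 and 4501 ± 75.2 CPM in KO. Most of this sum came from Atp5a1 and Atp5b. Without them the means were 1212 ± 79.1 and 1077 ± 7 CPM in WT, and 1320 ± 21.3 and 1207 ± 38.8 CPM in KO. Before OHT they were 1062 CPM in WT and 1120 CPM in F/F, which is not above EB. Complex I without its assembly factors was 2493 ± 174 and 2293 ± 8.32 CPM in WT and 2790 ± 28.3 and 2455 ± 69.3 CPM in KO. Complex III was 1112 ± 111 and 1020 ± 49.9 CPM in WT and 1225 ± 2.35 and 1038 ± 33.5 CPM in KO, and its WT mESC and WT EB libraries overlapped. Before OHT, the WT and F/F means were 2330 and 2592 CPM for complex I, and 781 and 794 CPM for complex II. For complexes III, IV and V they were 1121 and 1183, 1447 and 1616, and 4727 and 4951 CPM. The complex I sum in WT EB was thus close to that in WT before OHT. These sums carry no test. In such bulk samples, fewer cells of a type and less RNA per cell cannot be told apart.

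**Figure D1:**
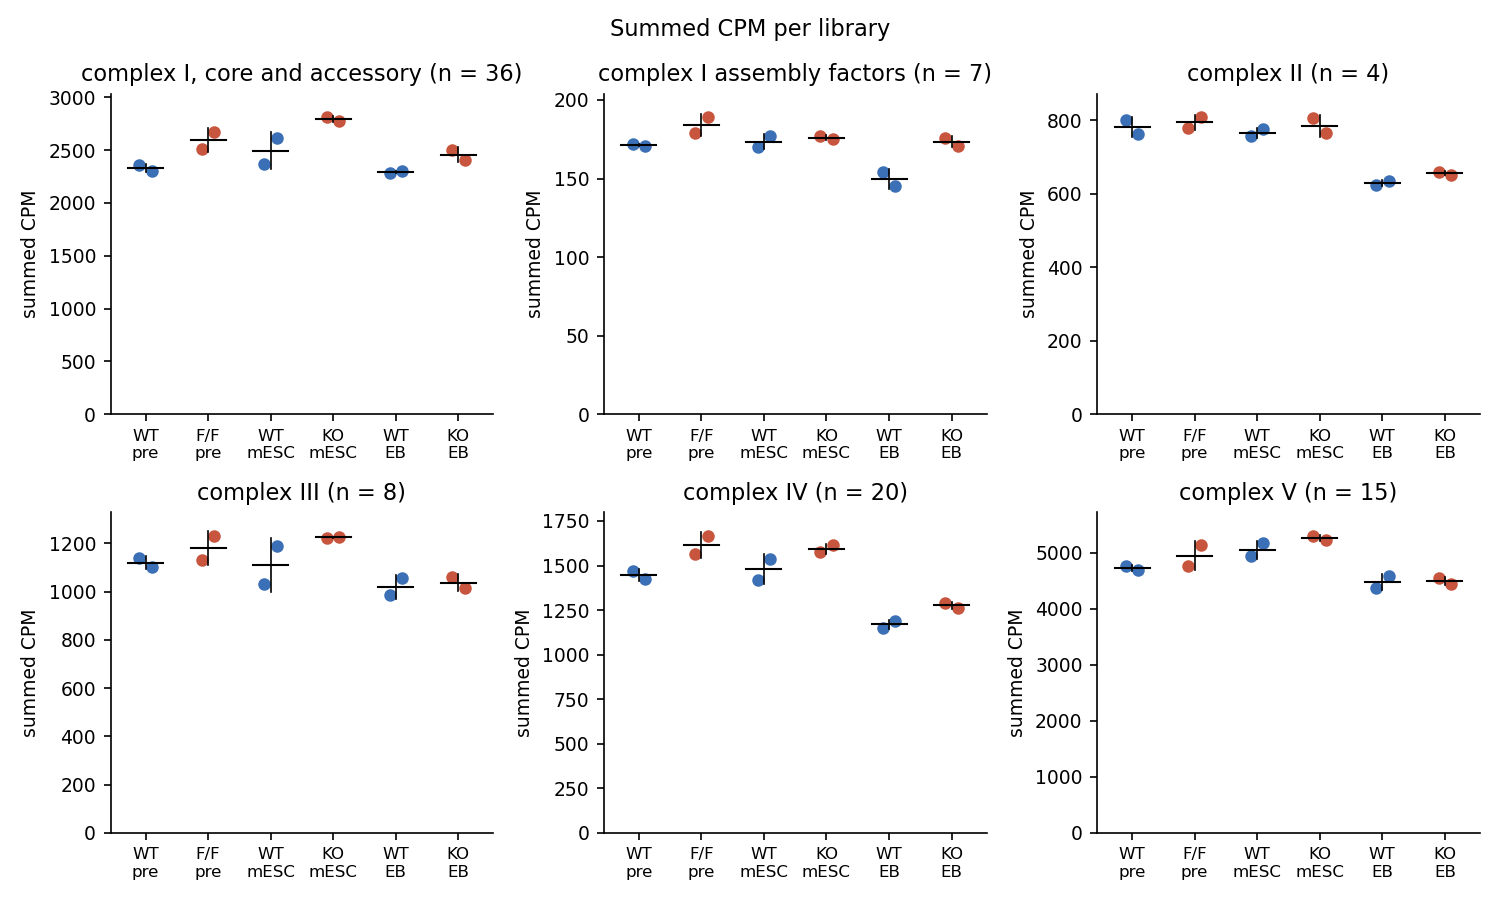
Summed CPM of the members of each complex (vertical axis from 0) in every library, by group (horizontal axis; pre, before OHT; mESC, after OHT); blue points are Rif1+/+ lines, red points Rif1F/F lines, the horizontal line the mean and the vertical line ± SD of 2 libraries. Complex IV lies at 1152 to 1291 CPM in the 4 EB libraries, below its 1419 to 1667 CPM in the 8 mESC libraries.

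From mESC after OHT to EB, more members fell than rose, in both genotypes. In WT, 41 of the 90 tested members were lower in EB and 9 were higher, with adjusted p under 0.05 over all 17115 genes tested. The background shares of all genes called were 29.8% lower and 32.5% higher, and 45.6% of the tested members were lower. In KO, 46 were lower and 8 higher, against backgrounds of 27.6% lower and 31.4% higher. The median log2 fold change of the members was -0.13 in WT and -0.22 in KO, beside 0.04 for all genes in each. Of the genes that were lower, 32 were so in both genotypes, which is 78.0% of the WT list and 69.6% of the KO list. Over all genes tested, the shared genes were 67.4% and 72.8% of the lists. Of the higher members, 4 were shared, 44.4% of the WT list and 50% of the KO list, beside 64.8% and 67% over all genes tested. With the correction for length and GC, 62 members were lower in WT, with a median of -0.31. All backgrounds here are from the fit without this correction. The shares and medians over all genes with it are not given, so its counts have no background beside them. In KO, the count of lower members was 28 without KO mESC replicate 4 and 29 without KO EB replicate 4. The count of higher members was 5 in WT without WT EB replicate 1 or replicate 2, and 5 in KO without KO EB replicate 4.

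**Figure D2:**
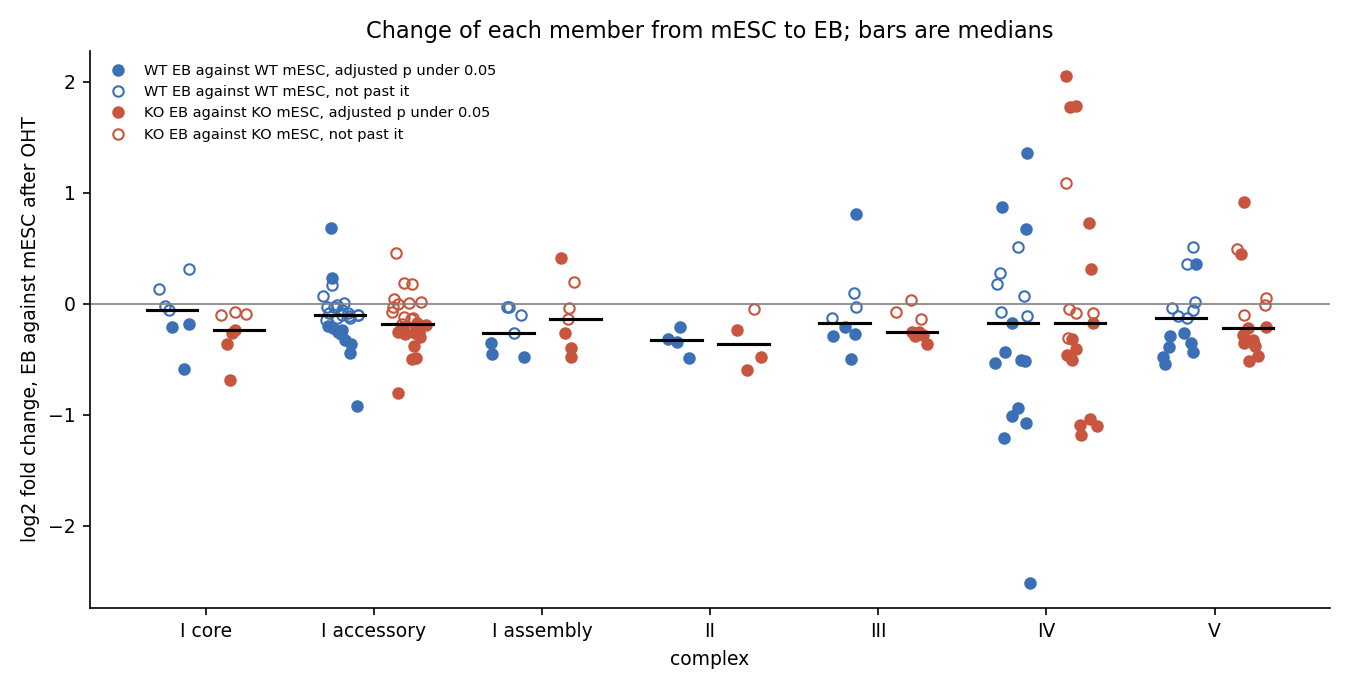
Log2 fold change of each tested member from mESC after OHT to EB (vertical axis), by complex (horizontal axis), in WT (blue) and KO (red); filled points passed adjusted p under 0.05 and black bars are medians. The points below -1 in both genotypes, Cox5a, Cox6b1 and Cox6b2, belong to complex IV.

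In complex IV, 10 of 19 tested members were lower and 3 higher in WT EB, and 9 were lower and 5 higher in KO EB. Cox5a, a subunit of the matrix side of the enzyme, was at 163 and 156 CPM in WT mESC and 71.0 and 82.4 CPM in WT EB. The KO lines had 172 and 161 CPM as mESC and 80.3 and 78.4 CPM as EB. All EB libraries lay below all mESC libraries, with a log2 fold change of -1.07 in WT (SE 0.08, edgeR adjusted p = 3.3e-09) and -1.09 in KO (SE 0.08, edgeR adjusted p = 3.5e-09). Cox5a shares 32.0% of its 50-base words with other genes, such as Gm26631. Cox6b1, a subunit at the dimer interface, had 114 and 122 CPM in WT mESC, 128 and 136 CPM in KO mESC, 60.1 and 57.9 CPM in WT EB and 64.8 and 65.2 CPM in KO EB. It fell by 1.01 on the log2 scale in WT (SE 0.07, edgeR adjusted p = 6.9e-10) and by 1.04 in KO (SE 0.07, edgeR adjusted p = 6.2e-10), with no overlap between EB and mESC.

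Among the tissue forms of complex IV, Cox6b2 and Cox7a1 fell in both genotypes, while Cox7b2 rose by 0.87 in WT (SE 0.18, edgeR adjusted p = 3.9e-04) and by 2.05 in KO (SE 0.15, edgeR adjusted p = 2.3e-09). Cox8c rose by 1.77 in KO (SE 0.43, edgeR adjusted p = 0.00192), from under 0.5 CPM. Cox6b2, known as the testis form of subunit 6b, was at 37.7 and 41.6 CPM in WT mESC and 17.7 and 17.0 CPM in WT EB, and at 55.6 and 60.1 CPM in KO mESC and 26.0 and 25.9 CPM in KO EB. Its log2 fold change was -1.21 in WT (SE 0.11, edgeR adjusted p = 4.8e-08) and -1.18 in KO (SE 0.11, edgeR adjusted p = 6.8e-08). Cox7a1, the heart and muscle form of subunit 7a, went from 9.21 and 11.3 CPM to 5.62 and 5.18 CPM in WT and from 13.8 and 12.8 CPM to 5.86 and 6.68 CPM in KO. The groups did not overlap, and the log2 fold changes were -0.94 in WT (SE 0.12, edgeR adjusted p = 4.4e-06) and -1.10 in KO (SE 0.13, edgeR adjusted p = 8.7e-07). Ndufa4l2, a paralog of Ndufa4 known to rise in hypoxia and not a tissue form, rose from a low level, from 0.710 and 0.936 CPM in WT mESC to 1.55 and 2.65 CPM in WT EB and from 0.610 and 0.670 CPM in KO mESC to 2.26 and 2.20 CPM in KO EB. EB libraries were again apart from mESC libraries, with a log2 fold change of 1.36 in WT (SE 0.31, edgeR adjusted p = 9.3e-04) and 1.78 in KO (SE 0.35, edgeR adjusted p = 3.2e-04). The WT call for Ndufa4l2 was lost without WT EB replicate 2.

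Among the remaining complex IV genes, Cox7a2, Cox6c and Cox7a2l (SCAF1, which links complex IV to complex III) fell by 0.51, 0.53 and 0.52 on the log2 scale in WT. Cox7b, an X-linked subunit, fell by 0.43 in WT and by 0.17 in KO, where the call was lost without any 1 of the 4 KO libraries. Cox4i1 did not pass the test in either genotype, at -0.07 in WT and -0.05 in KO. Cox8a gave the log2 values 0.07 in WT and -0.31 in KO and passed in neither. With the correction for length and GC the Cox8a value in WT was -0.36 (edgeR adjusted p = 0.0163). Cox5b, another subunit of the matrix side, rose instead. It was at 9.94 and 11.4 CPM in WT mESC and 19.8 and 14.7 CPM in WT EB, and at 19.8 and 22.2 CPM in KO mESC and 26.1 and 26.8 CPM in KO EB. The EB libraries were above the mESC libraries of the same genotype, and the log2 fold change was 0.67 in WT (SE 0.12, edgeR adjusted p = 1.3e-04) and 0.31 in KO (SE 0.12, edgeR adjusted p = 0.0361). The KO call for Cox5b was lost when KO EB replicate 3, KO EB replicate 4 or KO mESC replicate 3 was left out, and after the correction for length and GC. Cox5b shares 25.9% of its words with Gm11273. The lung form Cox4i2 stayed under 0.9 CPM and the muscle form Cox8b under 0.6 CPM in every library, and Cox8b was lower in WT EB only by a call that was lost without WT EB replicate 1, WT EB replicate 2 or WT mESC replicate 2, and in DESeq2 (adjusted p = 0.0721). The 7 listed markers of striated muscle summed to 1.40 to 2.81 CPM in mESC after OHT and 4.76 to 10.8 CPM in EB, and their part in the values of the muscle forms was not tested.

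**Figure D3:**
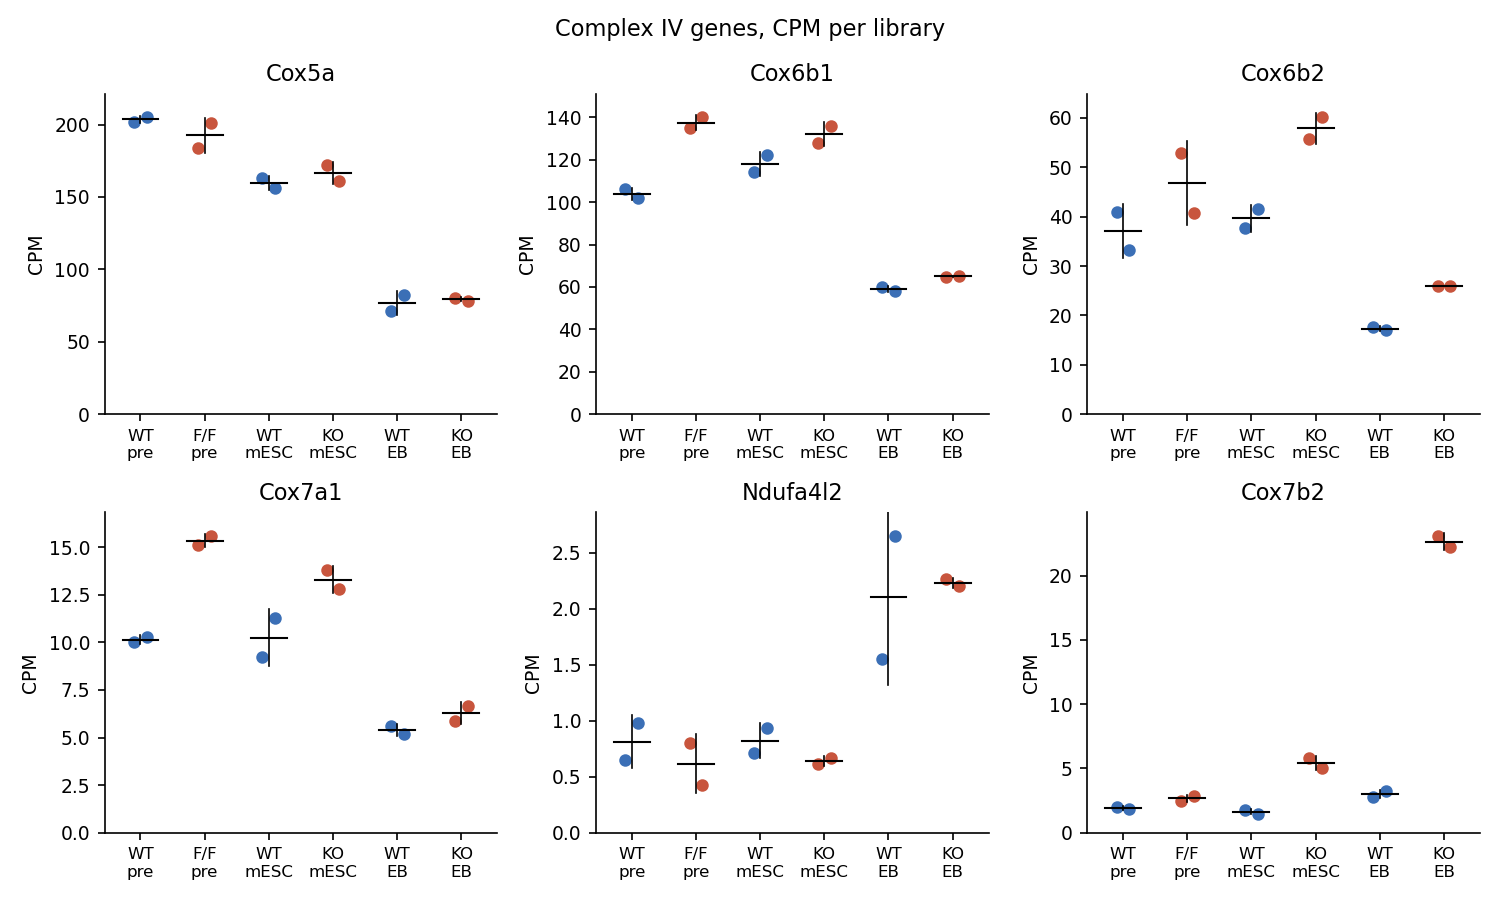
CPM of 6 complex IV genes (vertical axes from 0) in every library by group (horizontal axis; pre, before OHT; mESC, after OHT); blue points are Rif1+/+ lines, red points Rif1F/F lines, the horizontal line the mean and the vertical line ± SD of 2 libraries. Cox5a, Cox6b1, Cox6b2 and Cox7a1 are lower and Ndufa4l2 higher in EB than in mESC after OHT, and Cox7b2 is highest in the 2 KO EB libraries, at 23.1 and 22.2 CPM.

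In complex II, all 4 genes were lower in WT EB and 3 in KO EB. Sdhc, a membrane anchor, was at 113 and 117 CPM in WT mESC and 83.3 CPM in both WT EB libraries, and at 124 and 114 CPM in KO mESC and 87.3 and 85.2 CPM in KO EB. It fell by 0.49 on the log2 scale in WT (SE 0.07, edgeR adjusted p = 4.8e-06) and by 0.48 in KO (SE 0.07, edgeR adjusted p = 7.2e-06). Sdha, the flavoprotein that oxidises succinate, fell by 0.21 and 0.24. Sdhb, the iron-sulphur subunit, went from 108 and 120 CPM to 90.1 and 93.7 CPM in WT and from 130 and 121 CPM to 87.2 and 80.8 CPM in KO. Its log2 fold change was -0.32 in WT (SE 0.07, edgeR adjusted p = 6.6e-04) and -0.60 in KO (SE 0.07, edgeR adjusted p = 1.2e-06), and the EB libraries were lower than the mESC libraries in each genotype. Sdhd fell by 0.34 in WT, while its KO value was -0.05 (SE 0.07, edgeR adjusted p = 0.524).

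In complex I, falls were found in core, accessory and assembly genes. Of its 7 core genes, 3 were lower in WT EB and 4 in KO EB. Ndufs1 and Ndufv2 were lower in both, and Ndufs7 in KO. The Ndufs7 call was lost without any 1 of the 4 KO libraries and in DESeq2 (adjusted p = 0.124). Ndufv2, an iron-sulphur subunit of the NADH-oxidising arm, was at 146 and 144 CPM in WT mESC, 105 and 90.8 CPM in WT EB, 193 and 182 CPM in KO mESC, and 117 and 118 CPM in KO EB. The groups did not overlap within a genotype, and the log2 fold change was -0.59 in WT (SE 0.07, edgeR adjusted p = 1.7e-06) and -0.69 in KO (SE 0.07, edgeR adjusted p = 2.8e-07). Ndufs1, which carries iron-sulphur clusters of the same arm, fell by 0.21 and 0.24. The Ndufs1 calls were lost without WT EB replicate 1 or WT mESC replicate 1, and without KO EB replicate 3, KO EB replicate 4 or KO mESC replicate 3. Ndufv1, the subunit that binds NADH, passed in neither genotype. Of the 28 accessory subunits tested, 10 were lower and 2 higher in WT, and 13 were lower in KO. Ndufb4 had the steepest fall among them, from 24.5 and 22.9 CPM to 15.4 and 10.1 CPM in WT and from 22.7 and 21.9 CPM to 12 and 14.1 CPM in KO. EB libraries were all below mESC libraries, at -0.92 in WT (SE 0.14, edgeR adjusted p = 2.0e-05) and -0.80 in KO (SE 0.14, edgeR adjusted p = 1.4e-04). Ndufb4 shares 37.0% of its words with copies such as Ndufb4c. The higher accessory subunits in WT were Ndufab1 (0.68, at 1.18 to 2.35 CPM in the 4 libraries) and the X-linked Ndufb11 (0.23), and both calls were lost in DESeq2 (adjusted p = 0.0588 and 0.0731) and when single libraries were left out. These libraries were WT EB replicate 1, WT EB replicate 2 and WT mESC replicate 2 for Ndufab1, and both WT EB libraries and WT mESC replicate 1 for Ndufb11.

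Complex III had 4 lower genes and 1 higher in WT EB, and 5 lower in KO EB. Uqcrc2, a core protein, went from 241 and 236 CPM to 164 and 179 CPM in WT and from 273 and 273 CPM to 239 and 228 CPM in KO, without overlap. It fell by 0.50 on the log2 scale in WT (SE 0.07, edgeR adjusted p = 1.9e-05) and by 0.25 in KO (SE 0.07, edgeR adjusted p = 0.00884). The KO call was lost without KO EB replicate 4 or KO mESC replicate 4. Uqcrfs1, the Rieske iron-sulphur protein, fell by 0.27 and 0.25, and its WT call was lost without WT EB replicate 1 and its KO call without KO EB replicate 4 or KO mESC replicate 3. Uqcrc1, the other core protein, gave -0.03 in WT without passing and fell by 0.36 in KO. The higher gene in WT was Uqcrq, a small subunit, at 28 and 45.9 CPM in WT mESC and 66.4 and 63.5 CPM in WT EB. WT mESC replicate 1 was the lower of the pair, and the log2 fold change was 0.81 (SE 0.15, edgeR adjusted p = 1.8e-04), or 0.48 without that library.

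In complex V, 7 of 15 genes were lower and 1 higher in WT EB, and 9 lower and 2 higher in KO EB. Atp5b went from 2129 and 2149 CPM to 1747 and 1864 CPM in WT and from 2253 and 2263 CPM to 1838 and 1807 CPM in KO. The EB libraries were all lower, by 0.26 on the log2 scale in WT (SE 0.07, edgeR adjusted p = 0.00378) and 0.33 in KO (SE 0.07, edgeR adjusted p = 6.5e-04). Atp5c1, the gamma subunit that turns within the head, fell by 0.48 and 0.38, and Atp5k, a subunit of the dimer interface, by 0.54 and 0.35. These falls are against mESC after OHT. Before OHT, Atp5k averaged 27.6 CPM in WT and 32.9 CPM in F/F, beside 26.2 CPM in WT EB and 29.5 CPM in KO EB. Atp5c1 averaged 158 CPM in WT and 230 CPM in F/F before OHT, beside 137 CPM in WT EB and 186 CPM in KO EB. Atp5e, the epsilon subunit of the rotor, rose. It was at 63.1 and 75.3 CPM in WT mESC, 89.6 and 90.1 CPM in WT EB, 89.3 and 99.0 CPM in KO mESC, and 137 and 125 CPM in KO EB. Each genotype's EB libraries were above its mESC libraries, with log2 fold changes of 0.36 in WT (SE 0.08, edgeR adjusted p = 9.1e-04) and 0.45 in KO (SE 0.08, edgeR adjusted p = 1.3e-04). Among the assembly factors of complex I, Ndufaf1 and Ndufaf5 were lower in both genotypes, Ndufaf2 in WT and Ndufaf3 in KO, while Ndufaf4 rose by 0.41 in KO. The Ndufaf2 call was lost without WT EB replicate 2, and the KO call for Ndufaf5 without KO EB replicate 4, KO mESC replicate 3 or KO mESC replicate 4.

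Genes around the respiratory chain were read from lists of symbols. Over all genes tested, 32.5% were higher and 29.8% lower in WT EB, and 31.4% and 27.6% in KO EB. No list was tested as a set. Of 12 enzymes of the citric acid cycle, which supplies the chain with electrons, 9 were lower and 2 higher in WT EB (median log2 fold change -0.28), and 6 were lower in KO EB (median -0.15). Sucla2, a subunit of succinyl-CoA synthetase, fell by 0.93 in WT and 0.53 in KO. The 77 mitochondrial ribosomal proteins, which translate the mitochondrially encoded subunits, had 37 higher and 5 lower in WT EB (median 0.18), and 26 higher and 8 lower in KO EB (median 0.12). Among 95 tested cytoplasmic ribosomal proteins, 35 were higher and 13 lower in WT EB, and 18 higher and 12 lower in KO EB. Of 25 tested assembly factors of complexes II to V, 5 were higher and 6 lower in WT EB and 4 higher and 6 lower in KO EB. Tmem70, an assembly factor of ATP synthase, fell by 0.68 in WT. In KO it was at 34.1 and 30.3 CPM as mESC and 36.3 and 34.6 CPM as EB. Sco1, a copper chaperone of complex IV, fell by 0.53 in WT and 0.54 in KO. Of 7 complex I assembly factors outside the Nduf names, 4 were higher and 1 lower in each genotype, with Tmem126b up by 0.78 and 0.85. Of 13 tested regulators, 1 was higher and 4 lower in WT EB, and 3 were higher and 4 lower in KO EB. Gabpa, a subunit of the ETS-family factor GABP, fell by 0.57 and 0.33. Nrf1, which encodes the factor NRF1, averaged 70.1 CPM in WT mESC, 74.9 CPM in WT EB, 77.8 CPM in KO mESC and 107 CPM in KO EB. Polrmt, the mitochondrial RNA polymerase, rose by 0.58 in WT, from 31.8 and 43.5 CPM to 55 and 58.1 CPM. The value of 31.8 CPM was that of WT mESC replicate 1, and WT before OHT averaged 43.8 CPM. In KO, Polrmt was at 44 and 44.2 CPM as mESC and 42 and 41.7 CPM as EB. Of the 2 listed cytochromes, Cyc1, the cytochrome c1 of complex III, rose by 0.17 in WT, and Cycs, the soluble cytochrome c, fell by 0.50 in WT. Neither passed in KO. Cycs had few counts, at 4.77 and 6.02 CPM in WT mESC and 4.19 and 3.51 CPM in WT EB. Its shared sequence was not examined. Atpif1, which inhibits ATP synthase when it runs in reverse, was higher by 0.77 in WT EB (SE 0.06, edgeR adjusted p = 1.2e-08). Its KO value of 0.13 did not pass. Atpif1 averaged 93.8 CPM in WT mESC and 162 CPM in WT EB, and 134 CPM in KO mESC and 148 CPM in KO EB. Before OHT it was already at 132 CPM in F/F, against 90.3 CPM in WT.

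The comparisons of genotypes asked how members differ between the Rif1F/F and Rif1+/+ lines before OHT, after OHT and in EB. Before OHT, 29 members were higher and 3 lower in F/F than in WT, against backgrounds of 19.9% and 17.5% of all genes, and 32.2% of the tested members were higher. After OHT, 19 were higher and 3 lower in KO mESC than in WT mESC, against 19.8% and 18.6%. With the correction for length and GC, 8 were lower in KO mESC, and Cox6a1, one of the 19, turned to -0.10. In EB, 20 were higher and 8 lower, against 20.7% and 19.7%, and with RLE scaling in place of TMM 20 were higher and 3 lower. The lower calls were 3.33% of the tested members before OHT and after it, and 8.89% in EB. Cell state markers also moved with genotype in EB: those of early epiblast summed to 2498 to 2518 CPM in WT and 1378 to 1396 CPM in KO, with 5 of 6 lower, and those of mESC to 1124 to 1164 and 1336 to 1417 CPM, with 5 of 8 higher. Their part in the members' differences was not tested. The median log2 differences were 0.13, 0.03 and 0.03. Before OHT, the count of higher members was 15 without WT replicate 2 and 13 without F/F replicate 4, and that of lower members was 1 without either of these. After OHT, the higher count was 12 without WT mESC replicate 1 and 10 without KO mESC replicate 4. The 8 lower members in EB became 2 or 3 whichever of the 4 EB libraries was left out.

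In all 3 conditions, 10 members were higher in the Rif1F/F lines and 1, Ndufa12, was lower. These are 11.1% and 1.11% of the tested members, beside 4.97% and 4.52% of all genes tested. The 10 were Atp5c1, Atp5e, Cox5b, Cox6b2, Cox7b2, Ndufa13, Ndufa3, Ndufs6, Ndufv2 and Uqcr10. Because the same lines recur in each condition, these are repeated measurements of 2 pairs of lines. Uqcr10, a small subunit of complex III, had 87.7 CPM in both WT libraries and 121 and 130 CPM in F/F before OHT, 81.1 and 103 CPM in WT and 151 and 154 CPM in KO mESC, and 78.9 and 81.7 CPM in WT and 134 and 122 CPM in KO EB. The Rif1F/F libraries were above the Rif1+/+ libraries throughout, by 0.55, 0.67 and 0.61 on the log2 scale (SE 0.09, 0.08 and 0.09; edgeR adjusted p = 8.2e-05, 1.0e-05 and 2.4e-05). Cox5b was at 12.2 and 11.7 CPM in WT and 24.1 and 25.2 CPM in F/F before OHT, and differed by 1.07 on the log2 scale (SE 0.12, edgeR adjusted p = 3.4e-06). Its differences after OHT and in EB were 0.93 and 0.56. Atp5c1 differed by 0.57, 0.27 and 0.38. Ndufa13, also known as GRIM19, differed by 0.44, 0.62 and 0.37. Ndufa12 was at 26.1 and 24.3 CPM in WT and 20.3 and 16.4 CPM in F/F before OHT, and was lower by 0.43, 0.49 and 0.28 in the 3 conditions. The Ndufa12 call before OHT was lost without F/F replicate 4, and that in EB without any 1 of the 4 EB libraries. Cox6b2, Cox7b2, Atp5e, Ndufa3 and Ndufs6 before OHT, Ndufa3 after it and Ndufv2 in EB also lost their calls when single libraries were left out. These libraries were WT replicate 2 for Ndufa3, F/F replicate 4 and WT replicate 2 for Atp5e and Ndufs6, F/F replicate 3 and WT replicate 2 for Cox6b2, F/F replicate 4 and both WT libraries for Cox7b2, both KO mESC libraries and WT mESC replicate 2 for Ndufa3 after OHT, and WT EB replicate 2 and both KO EB libraries for Ndufv2.

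**Figure D4:**
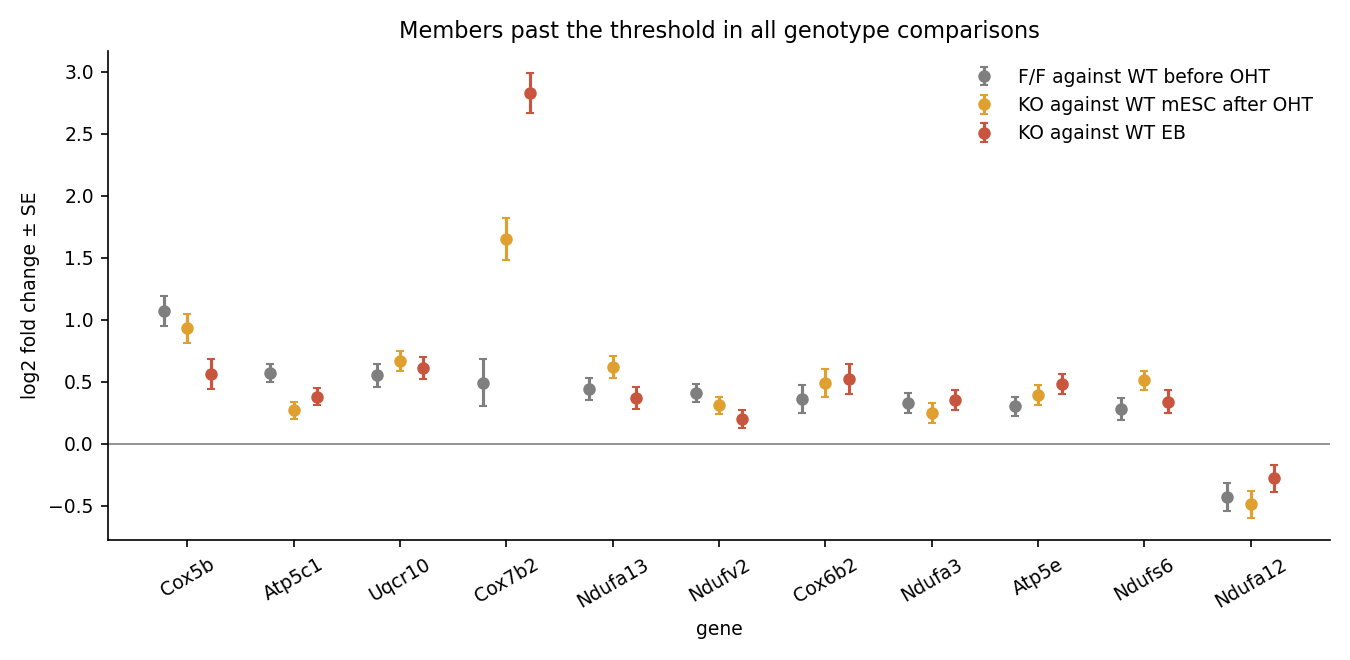
Log2 fold change ± SE (vertical axis) of the 11 members past adjusted p under 0.05 in all 3 comparisons of Rif1F/F with Rif1+/+ lines, by gene (horizontal axis): before OHT (grey), mESC after OHT (yellow) and EB (red). Cox7b2 goes from 0.49 before OHT to 1.65 in mESC and 2.83 in EB, and Ndufa12 is below 0 in each condition.

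Cox7b2, known as the testis paralog of Cox7b, was the member with the widest genotype difference. It was at 2.04 and 1.82 CPM in WT and 2.46 and 2.88 CPM in F/F before OHT. After OHT it was at 1.79 and 1.49 CPM in WT mESC and 5.80 and 5.05 CPM in KO mESC, and in EB at 2.82 and 3.25 CPM in WT and 23.1 and 22.2 CPM in KO. The lines were close before OHT and far apart in EB, with no overlap in any condition. The log2 difference was 0.49 before OHT (SE 0.19, edgeR adjusted p = 0.0469), 1.65 in mESC after OHT (SE 0.17, edgeR adjusted p = 9.6e-07) and 2.83 in EB (SE 0.16, edgeR adjusted p = 2.8e-10). The call before OHT did not hold with the correction for length and GC (edgeR adjusted p = 0.0619) or in DESeq2 (adjusted p = 0.0751). The difference grew between conditions: it was larger by 1.16 after OHT than before (SE 0.25, edgeR adjusted p = 0.0101) and larger by 1.18 in EB than in mESC after OHT (SE 0.23, edgeR adjusted p = 0.00117). The first of these calls was lost without WT replicate 1 before OHT. Within the Rif1F/F lines Cox7b2 rose by 1.02 with OHT (SE 0.17, edgeR adjusted p = 1.4e-04), while the WT value was -0.14 (SE 0.19, edgeR adjusted p = 0.552). Its paralog Cox7b stayed between 111 and 174 CPM in all libraries. Cox8c, another testis form, was at 0.0238 to 0.454 CPM in the 10 libraries outside KO EB and at 1.34 and 0.874 CPM in KO EB. It was lower in F/F than in WT before OHT, with a log2 difference of -2.55 (SE 0.71, edgeR adjusted p = 0.00925), and higher after OHT than before in the Rif1F/F lines, by 2.64 (SE 0.72, edgeR adjusted p = 0.00706). Both calls were lost without F/F replicate 4, the first also without WT replicate 2 and the second without KO mESC replicate 3. Its genotype difference in EB was 1.34 (SE 0.40, edgeR adjusted p = 0.0124), a call lost without KO EB replicate 3, WT EB replicate 1 or WT EB replicate 2, and in DESeq2 (adjusted p = 0.0766). Of 7 listed testis and germ cell genes, Prm1 and Tnp1 were at 0 in at least 6 libraries, and the sum, most of it Dazl, was 725 to 769 CPM in WT and 106 to 130 CPM in F/F before OHT, 607 to 715 CPM in WT and 286 to 336 CPM in KO mESC, and 118 to 122 CPM in WT and 312 to 316 CPM in KO EB. The part of such cells in the Cox7b2 values was not tested.

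For other members too, the genotype difference itself was tested between conditions. Between EB and mESC after OHT, 5 members had a higher and 8 a lower genotype difference in EB, against backgrounds of 14.8% and 13.7% of all genes. With RLE scaling these were 5 and 5, and with the correction for length and GC 8 and 2. The higher count was 1 without KO mESC replicate 3, WT EB replicate 2 or KO EB replicate 4, and 2 without WT mESC replicate 1, KO mESC replicate 4 or KO EB replicate 3. The lower count was 15 without WT mESC replicate 2, 4 without KO EB replicate 3, 3 without WT mESC replicate 1 or WT EB replicate 2, and 0 without KO mESC replicate 4 or KO EB replicate 4. Between mESC after OHT and before it, Cox7b2 was the 1 higher call and no member was lower in the edgeR fit as described, against backgrounds of 4.07% and 3.79%. At an unadjusted p under 0.05, 13 members were lower. DESeq2 called 2 lower, edgeR without the low-count filter 4, and edgeR with the correction for length and GC 10. The higher count was 6 without WT mESC replicate 2 and 0 without WT replicate 1 before OHT, and the lower count was 3 without WT mESC replicate 2 and 8 without F/F replicate 3. Uqcrq had the largest negative value. In EB it was at 66.4 and 63.5 CPM in WT and 51.0 and 46.1 CPM in KO, and in mESC after OHT at 28 and 45.9 CPM in WT and 40.9 and 52.8 CPM in KO. The KO libraries were lower in EB and overlapped with WT in mESC, and the difference of differences was -0.78 (SE 0.22, edgeR adjusted p = 0.0124), a call lost in DESeq2 (adjusted p = 0.0653) and without KO mESC replicate 4 or KO EB replicate 4. Atp5s, known as an ATP synthase coupling factor, was at 14.5 and 13.4 CPM in WT EB and 9.14 and 6.50 CPM in KO EB, a log2 difference of -0.88 (SE 0.13, edgeR adjusted p = 5.3e-05). In mESC it was at 10.5 and 11.3 CPM in WT and 9.39 and 10 CPM in KO, and the difference of differences was -0.66 (SE 0.19, edgeR adjusted p = 0.0148), a call lost without the same 2 libraries. The assembly factor Ndufaf2 was at 14.1 and 12.3 CPM in WT EB and 19.5 and 20.0 CPM in KO EB, while the mESC libraries of both genotypes lay between 16.0 and 17.6 CPM. Its difference of differences was 0.55 (SE 0.16, edgeR adjusted p = 0.0152), lost without KO mESC replicate 3, WT EB replicate 2 or KO EB replicate 4.

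Of the 3 X-linked members, Cox7b and Ndufa1 passed the genotype test before OHT and in EB, and Ndufb11 before OHT and in mESC after OHT. Cox7b was at 124 and 111 CPM in WT EB and 150 and 151 CPM in KO EB, a log2 difference of 0.29 (SE 0.07, edgeR adjusted p = 0.00177). Ndufa1, an accessory subunit, differed by 0.27 in EB and by 0.20 before OHT, with a value of 0.08 in mESC after OHT that did not pass. The Ndufa1 and Cox7b calls before OHT were lost without F/F replicate 4 or either WT library, and the Ndufa1 call in EB without KO EB replicate 3 or WT EB replicate 1. Ndufb11 differed by 0.67 before OHT and 0.53 in mESC after OHT, and by 0.05 in EB (SE 0.10, edgeR adjusted p = 0.726). It had 31.6 and 30.8 CPM in WT and 44.8 and 52.4 CPM in F/F before OHT, and 32.2 and 34.8 CPM in WT and 37.4 and 34.9 CPM in KO EB. Ndufb11 shares 17.5% of its words with Gm6444.

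**Figure D5:**
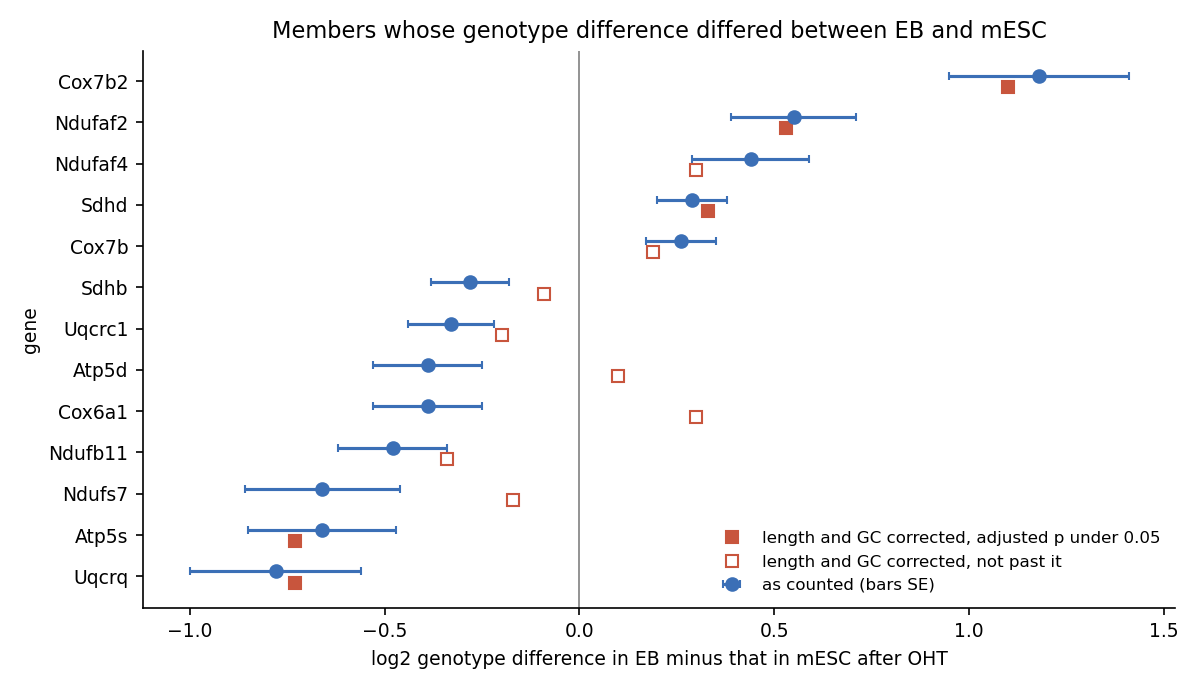
Log2 genotype difference in EB minus that in mESC after OHT (horizontal axis) of the 13 members past adjusted p under 0.05 (vertical axis); circles with SE bars are the values as counted, squares those corrected for length and GC, filled where adjusted p stayed under 0.05. Cox7b2, Ndufaf2, Sdhd, Atp5s and Uqcrq passed both ways, and Cox6a1 and Atp5d changed sign.

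After OHT, more members were higher than lower relative to the libraries before it. In WT, 36 members were higher and 6 lower in mESC after OHT than before it, against backgrounds of 24.9% and 24.2%, and in the Rif1F/F lines 27 were higher and 12 lower, against 22.1% and 21.5%. Of these, 22 higher members were shared, 61.1% of the WT list and 81.5% of the Rif1F/F list, beside 57.6% and 64.9% over all genes tested. All 6 that were lower in WT were lower in both, which is 50% of the Rif1F/F list. Over all genes tested, the shared lower genes were 57.2% and 64.2% of the lists. Without single libraries, the lower count in WT rose to 11 (WT mESC replicate 2 left out). In the Rif1F/F lines the higher count fell to 17 without KO mESC replicate 4 or F/F replicate 3, and the lower count to 7 and 6 without KO mESC replicate 4 or F/F replicate 4. Ndufa5, an accessory subunit, was at 23.4 and 25.2 CPM before OHT and 34.2 and 33.0 CPM after it in WT, and at 26.2 and 28.6 CPM and 40.4 and 43.0 CPM in the Rif1F/F lines. Libraries after OHT were all higher, by 0.55 in WT (SE 0.09, edgeR adjusted p = 7.2e-05) and 0.61 in the Rif1F/F lines (SE 0.09, edgeR adjusted p = 3.6e-05). Atp5h and Atp5o, both of the peripheral stalk of ATP synthase, rose by 0.66 and 0.54 in WT and by 0.47 and 0.39 in the Rif1F/F lines. Ndufb2 and the assembly factor Ndufaf6 fell by 0.43 each in WT, and by 0.57 and 0.51 in the Rif1F/F lines. The mESC libraries after OHT are the baseline of the EB comparisons too, so the comparisons share them and their values are given only side by side.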

How the data were processed

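For each library the authors deposited raw counts of reads by gene symbol, as whole numbers. Per the submitters' processing notes, BWA, HTSeq, DESeq2 and the build mm9 were involved; no version or role is recorded there, and neither the annotation nor the strand setting is given in the sources used here. Counts were tested as deposited with edgeR 4.0.16 (limma 3.58.1, R 4.3.3): quasi-likelihood F test, 1 model of 6 groups, TMM scaling, filterByExpr, and Benjamini-Hochberg adjustment over the 17115 genes kept, called at 0.05. SE is the log2 fold change over the root of F. The procedure was run on simulated counts with the same spread for every gene and no line, length or GC effects. That run does not show how the calls hold where such effects occur. CPM divides by the library total, and counts per kilobase use the longest GENCODE M21 transcript. Symbols were matched to RefSeq, 89 members by symbol and 3 by synonym. Shared sequence is the share of 50-base words of the longest protein-coding transcript found in another gene's transcripts, on either strand.

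The members, gene lists and named-gene rule were chosen with earlier results of these data known. The rule named, per direction, up to 10 members (5 in comparisons of OHT or of differences) with the largest change among those called, with mean log2 CPM of at least 0 and no overlap, plus fixed subunits, isoforms and X-linked members. Other members are named only to list calls or levels. Alternatives were DESeq2 1.42.0, RLE scaling, no filter, only the groups compared, a cell-line block, a length and GC correction, structural subunits alone and leaving out each library, with 2 added after the data were seen (members with little shared sequence, and coding-transcript lengths). Same-numbered libraries are the same cell line, which pairs them by design, although their deviations correlated across genes at only -0.066 to 0.0912. The values of 1 member are not reported here.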

Additional observations from a re-analysis of the deposited data

Results flagged for a closer look

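These results were picked out because a test of the difference itself found that 2 genotype differences were unequal. Between EB and mESC after OHT, the log2 genotype difference changed by -0.78 for Uqcrq, -0.66 for Atp5s, -0.66 for Ndufs7, -0.48 for Ndufb11, -0.39 for Cox6a1, -0.39 for Atp5d, -0.33 for Uqcrc1, -0.28 for Sdhb, 0.26 for Cox7b, 0.29 for Sdhd, 0.44 for Ndufaf4, 0.55 for Ndufaf2 and 1.18 for Cox7b2. Between mESC after OHT and before it, the difference changed by 1.16 for Cox7b2. After the correction for length and GC, Uqcrq (-0.73), Atp5s (-0.73), Sdhd (0.33), Ndufaf2 (0.53) and both Cox7b2 values (1.10 and 1.24) stayed past the threshold. The others did not, at -0.17 for Ndufs7, -0.34 for Ndufb11, 0.30 for Cox6a1, 0.10 for Atp5d, -0.20 for Uqcrc1, -0.09 for Sdhb, 0.19 for Cox7b and 0.30 for Ndufaf4.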

How the results depend on the processing

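Among called or named members, every change of direction that involved a call came with the length and GC correction: Cox8a in WT EB against WT mESC (-0.36), Cox6a1 in KO against WT mESC (-0.10) and the differences of genotypes between EB and mESC of Cox6a1 (0.30) and Atp5d (0.10). In that correction the lower members were 62 in WT EB (median -0.31), 4 in KO against WT EB and 8 in KO against WT mESC. Those of the EB minus mESC genotype difference were 8 higher and 2 lower, and those of the mESC minus before-OHT difference 10 lower. Shares over all genes in that corrected fit are not given, so the backgrounds above do not apply to these counts. RLE scaling and DESeq2 each left 3 lower members in KO against WT EB and 5 lower in the EB minus mESC difference, and DESeq2 gave 2 lower and no filter 4 lower in the mESC minus before-OHT difference, where the edgeR count was 0 and the cause was not tested. Structural subunits alone gave 3 higher in the EB minus mESC difference, by fewer members. The replicate block (cell line) gave 11 higher and 40 lower in WT EB and 7 higher and 44 lower in KO EB, and moved no count of calls by over 1.5 times. Without 1 library each, counts ranged over 5 to 11 higher in WT EB, 5 to 7 higher and 28 to 37 lower in KO EB, 2 to 3 lower in KO against WT EB, 10 to 24 higher in KO against WT mESC, 13 to 35 higher and 1 to 2 lower in F/F against WT, 1 to 5 higher and 0 to 15 lower in the EB minus mESC difference, 0 to 6 higher and 0 to 8 lower in the mESC minus before-OHT difference, 4 to 11 lower with OHT in WT, and 17 to 33 higher and 6 to 11 lower with OHT in the Rif1F/F lines. Of the 281 member calls over the 9 comparisons, 150 held in every such fit. In per-kilobase order, the lowest complex V gene and both ends of the complex I assembly factors depended on the length used. Counts limit Cox6a2, Cox8b, Cox8c and Atp5l, all near or under 1 CPM.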
